A study of Homo sapiens with 30 samples.

Results

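Long noncoding RNA (lncRNA) exons held 610 of the 48311 crosslinking peaks of the RNA-binding protein LARP6 in glioblastoma cells. A peak was counted there when its centre lay in an exon of a lncRNA gene (GENCODE, GRCh38) and in no exon of a protein-coding gene on the same strand. The 610 peaks lay in 159 genes and merged into 393 separate sites. Protein-coding exons held 43624 peaks, most of the rest. The peaks come from iCLIP, in which ultraviolet light links a protein to the RNA it touches in living cells and the position of each link is read by sequencing. The cells were U-87 MG, an established glioblastoma line, and the protein was pulled down through a myc tag. There were 6 lines: parental U-87 MG, and lines carrying a doxycycline-inducible myc-LARP6 as full length (FL), deltaNTR (without the N-terminal region), deltaCTR (without the C-terminal region), deltaLa-module (without the La-module, the folded RNA-binding unit) or deltaNTD (without the N-terminal region and the La-module together). The inducible lines were made with lentivirus, the variants were codon-optimised, and the cells kept their own LARP6 gene, which had 1398 to 1872 long-RNA counts over the 6 lines. All samples carry the same treatment label, 60 ng/mL doxycycline for 24 h.

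The peak lists hold no replicates: the authors merged the peaks of 3 iCLIP replicates per line, summed their scores and removed peaks also present in the parental line. A score is that sum, with 3 as its lowest value. The study reports that deltaLa-module and deltaNTD bound no RNA in cells, and it left both out of its later analyses. Their peaks are described here as listed, without a claim of binding. Each line also had 1 long-RNA library (paired reads of 150 nt, PE150; 25027075 to 28692476 counts on genes) and 1 small-RNA library (single reads of 50 nt, SE50; 6181270 to 10307756 counts). No comparison between lines therefore has a test. Intervals are 95% intervals that cover counting error only. Of the line's markers, VIM had 194113 to 222278 PE150 counts and CD44 52031 to 64266. GFAP, the astrocyte filament gene, had 0 to 6. CDKN2A and MTAP, deleted in U-87 MG, had 0 in all 6 libraries.

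lncRNAs are transcripts without a long reading frame. Some stay in the nucleus, where NEAT1 builds paraspeckles and MALAT1 lies in speckles. Some act in the cytoplasm (NORAD holds Pumilio proteins). Others are known mainly as hosts whose introns or exons carry small nucleolar RNAs (snoRNAs) or microRNAs. LARP6 belongs to the La-related proteins, which share a pair of adjoining RNA-binding folds, together the La-module. Its best-known targets are messenger RNAs, among them those of type I collagen.

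The 31 nt around the centre of the highest FL peak are shown for 5 of the leading genes, followed by the 3 highest deltaLa-module peaks of MALAT1, since these carry the comparison between variants. All are GRCh38, written 5′ to 3′ on the strand of the RNA, with runs of at least 6 pyrimidines (C or T) in capitals.
MALAT1 in FL, chr11:65505157-65505187, plus strand, score 33: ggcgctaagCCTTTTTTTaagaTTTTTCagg
NORAD in FL, chr20:36049681-36049711, minus strand, score 40: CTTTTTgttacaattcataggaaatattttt
SNHG29 in FL, chr17:16440191-16440221, plus strand, score 28: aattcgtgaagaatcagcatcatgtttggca
SVIL-AS1 in FL, chr10:29421746-29421776, plus strand, score 27: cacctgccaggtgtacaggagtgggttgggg
NEAT1 in FL, chr11:65423468-65423498, plus strand, score 6: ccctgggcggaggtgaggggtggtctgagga
MALAT1 in deltaLa-module, chr11:65499442-65499472, plus strand, score 12: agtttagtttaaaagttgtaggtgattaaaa
MALAT1 in deltaLa-module, chr11:65499710-65499740, plus strand, score 12: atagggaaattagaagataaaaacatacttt
MALAT1 in deltaLa-module, chr11:65500083-65500113, plus strand, score 11: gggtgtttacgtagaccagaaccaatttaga

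Several of the highest peaks lay over tRNA or snoRNA genes inside the lncRNA exon. These genes are shown from the first base of the peak or of the small RNA, whichever comes first, to the end of the small RNA, with the bases under a peak in capitals.
TRR-TCG1-1 in POLG-DT, FL, chr15:89335073-89335145, plus strand: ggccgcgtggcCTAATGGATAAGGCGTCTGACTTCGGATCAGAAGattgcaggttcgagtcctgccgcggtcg
TRQ-TTG2-1 in ZBED9-AS1, both FL peaks, chr6:28589368-28589450, plus strand: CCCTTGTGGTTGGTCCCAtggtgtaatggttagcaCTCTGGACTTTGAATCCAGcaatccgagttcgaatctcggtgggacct
TRV-AAC2-1 in LINC01962, deltaCTR, chr5:181188416-181188498, minus strand: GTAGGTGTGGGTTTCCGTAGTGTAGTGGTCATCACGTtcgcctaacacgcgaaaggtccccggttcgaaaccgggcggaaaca
SNORD44 in GAS5, deltaNTR, chr1:173865968-173866037, minus strand: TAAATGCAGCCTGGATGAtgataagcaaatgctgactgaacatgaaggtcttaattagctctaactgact
SNORD31 in SNHG1, FL, chr11:62853326-62853403, minus strand: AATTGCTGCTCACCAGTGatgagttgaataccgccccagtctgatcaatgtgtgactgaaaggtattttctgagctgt

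FL had 178 peaks in lncRNA exons, in 74 genes, deltaNTR 195 in 75 genes, and deltaCTR 195 in 83 genes. The deltaLa-module list had 36 in 9 genes and the deltaNTD list 6 in 5 genes. As a share of each list this was 1.24% in FL (1.07 to 1.44), 1.14% in deltaNTR (0.987 to 1.30) and 1.23% in deltaCTR (1.07 to 1.41), and the intervals overlap. The share was 5.66% in deltaLa-module (4.12 to 7.74), above the intervals of FL, deltaNTR and deltaCTR, and 2.06% in deltaNTD (0.948 to 4.42). The number of deltaLa-module peaks was 20.2% of that of FL in lncRNA exons (13.7 to 29.1), compared with 4.44% over all peaks and 3.01% over protein-coding exons. The places were only partly the same, since 16 of the 36 deltaLa-module peaks overlapped an FL peak and 17 of the 178 FL peaks (9.55%) a deltaLa-module peak. These overlaps are not set beside those over all peaks, so they do not tell lncRNA peaks from other peaks. Much of the difference in number lay in MALAT1. Without it the numbers were 9 against 130 peaks, or 6.92% (3.10 to 13.5), an interval that holds the value over all peaks and lies just above that over protein-coding exons. With MALAT1 taken out of the whole list as well, the lncRNA share of the deltaLa-module list was 1.48%. Scores were low throughout. In FL 92 of the 178 peaks (51.7%) had the lowest score of 3, as did 103 of 195 in both deltaNTR and deltaCTR, and in protein-coding exons the FL share was 52.0%.

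**Figure D1:**
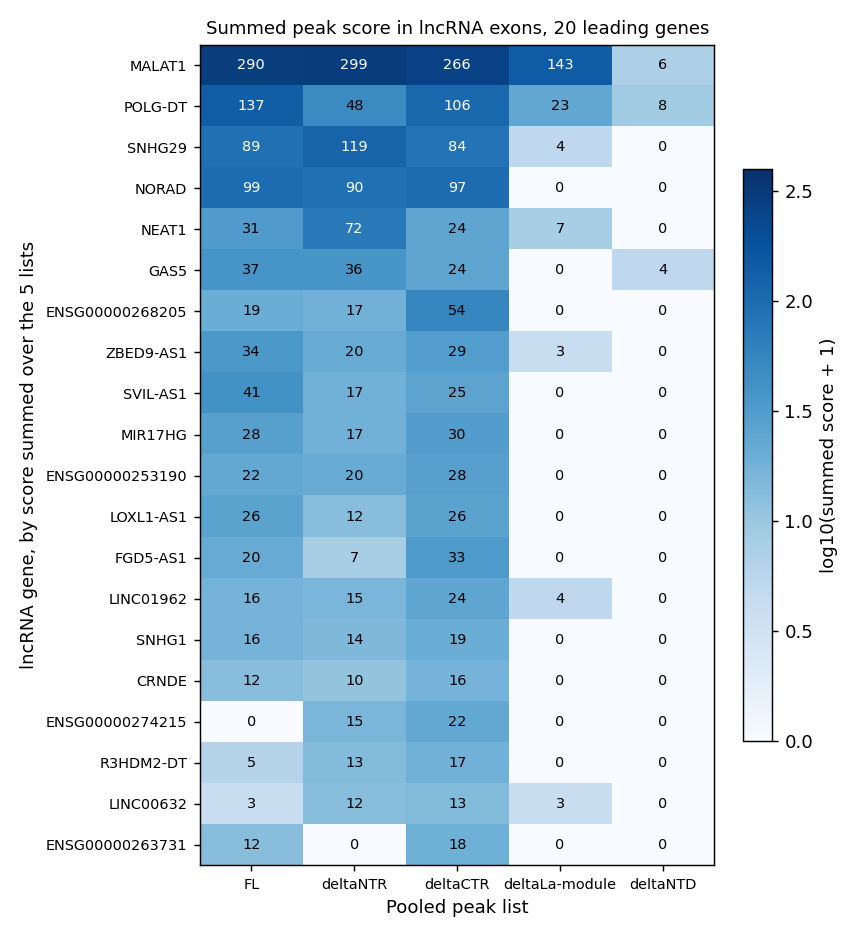
Peak scores summed per gene (numbers in the cells, shading on a log10 scale) for the 20 lncRNA genes with the highest sum over the 5 pooled lists (columns). MALAT1 leads with 290, 299, 266, 143 and 6, and most of the other genes are at 0 in the deltaLa-module and deltaNTD lists.

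MALAT1, the abundant nuclear speckle RNA, was the leading gene. It lies at chr11:65497640-65508073 on the plus strand as 1 exon of 10434 nt and had 68760 to 92345 PE150 counts over the 6 lines. It held 48 peaks in FL, 40 in deltaNTR, 48 in deltaCTR, 27 in deltaLa-module and 2 in deltaNTD. The summed scores were 290, 299, 266, 143 and 6 in the same order. The first 3 lists were thus close to each other, and the deltaLa-module list, which was small elsewhere, still had 56.2% of the FL peak number. Among the 50 genes of any class with at least 20 FL peaks that share was highest for MALAT1. VIM followed with 45.8%, and the median was 2.90%. In the deltaLa-module list MALAT1 came first by both score and number of peaks (4.25% of the whole list), whereas in FL it was 35th by score and 6th by number of peaks. MALAT1 had 82819 PE150 counts in the deltaLa-module line. VIM had 222278, the most there among genes with a peak in a lncRNA or protein-coding exon. The next such genes by count were ACTB, with 212646 counts and 2 deltaLa-module peaks, and MT-CO1, with 210731 and 5. Over the 34 most abundant such genes, MALAT1 and VIM included, the mean was 2.97 deltaLa-module peaks. The part of RNA abundance in the result was not tested.

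The peaks of MALAT1 were spread over its middle, with centres from nt 1456 to nt 8379 of the transcript. None lay in the first 1000 nt or beyond nt 9000 in any list. The deltaLa-module peaks sat more towards the start: 5 of 27 lay in nt 1001 to 2000 and 8 in nt 2001 to 3000, where FL had 3 and 8 of 48. In nt 7001 to 8000, the window with most FL peaks, FL had 10 and deltaLa-module 3. Of the 27 deltaLa-module peaks, 13 overlapped an FL peak, 9 a deltaNTR peak and 16 a deltaCTR peak. The site at chr11:65499565-65499643 was the only one of MALAT1 with a peak in all 5 lists, with scores of 15 in FL, 10 in deltaNTR, 3 in deltaCTR, 8 in deltaLa-module and 3 in deltaNTD. Heights at single sites differed between variants. The site at chr11:65505573-65505636 scored 17 in FL, 48 in deltaNTR and 12 in deltaCTR, whereas that at chr11:65505104-65505201 scored 39, 17 and 13.

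**Figure D2:**
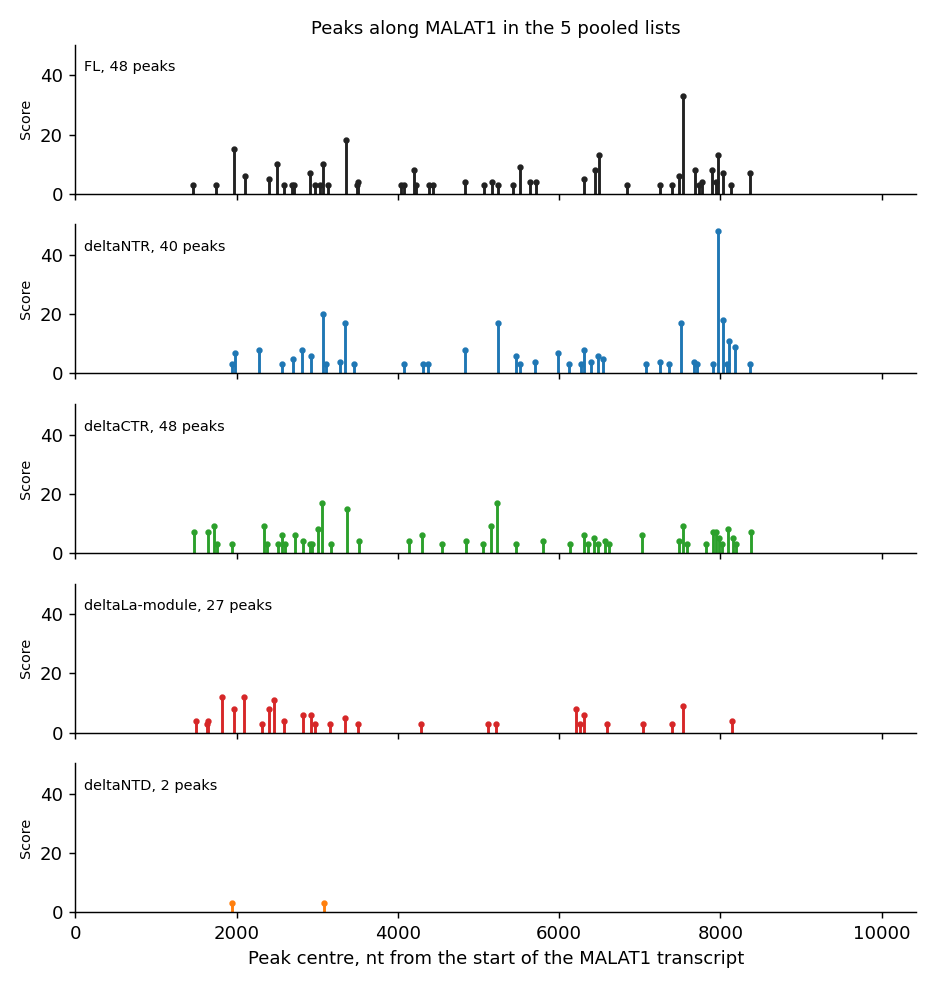
Peaks along the MALAT1 transcript (horizontal axis, peak centre in nt from the start; vertical axis, score) in the 5 pooled lists, 1 panel a list. Peaks run from nt 1456 to nt 8379, and the deltaLa-module panel holds 27 of them, the deltaNTD panel 2.

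The bases under the MALAT1 peaks also differed in the deltaLa-module list. A made up 37.0% of the 31 nt windows there, C and T together 41.3% ± 13.3 (SD over 27 peaks), and the GC share was 34.7%. In FL the MALAT1 windows had 29.2% A, 46.4% ± 12.5 C and T (SD over 48 peaks) and 41.6% GC, close to the whole exon, at 46.8% C and T and 42.04% GC. The MALAT1 windows of deltaNTR and deltaCTR lay between these lists, with 31.3% and 31.5% A and 39.4% and 39.3% GC. The spread over peaks was larger than the difference in C and T, and it was not computed for A and GC. A run of at least 6 pyrimidines was in 27.1% of the FL windows (16.6 to 41) and 18.5% of the deltaLa-module windows (8.18 to 36.7), and the intervals overlap.

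NEAT1, the paraspeckle RNA, and NORAD, a cytoplasmic RNA, showed other patterns. NEAT1 (chr11:65422774-65445540, plus strand) had 9 peaks in FL, 19 in deltaNTR, 8 in deltaCTR, 2 in deltaLa-module and 0 in deltaNTD. The summed scores were 31, 72, 24, 7 and 0, so deltaNTR stood above the others. No NEAT1 peak scored over 6, and the peaks rarely fell at the same place in different lists, with 1 site shared by FL and deltaCTR as the highest (scores 6 and 3). Its PE150 counts ran from 5375 to 7531, with 7140 in FL and 7450 in deltaNTR. NORAD (chr20:36045618-36051018, minus strand, 5401 nt) had 12, 14 and 9 peaks in FL, deltaNTR and deltaCTR. Its scores were 99, 90 and 97, and it had no peak in the other lists although its PE150 counts there were 15595 and 15535. The site at chr20:36049665-36049715 was the highest in each of the 3 lists, with 40 in FL, 24 in deltaNTR and 58 in deltaCTR. The Pumilio motif TGTANATA, searched on the strand of the RNA in the 31 nt windows, was in 0 of 12 FL windows of NORAD and 1 of 14 deltaNTR windows, and in 0.223% of all FL windows.

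Among snoRNA hosts, SNHG29 (chr17:16438767-16480249, plus strand) was the strongest, with 10 peaks in FL, 14 in deltaNTR, 11 in deltaCTR and 1 in deltaLa-module. Its summed scores were 89, 119, 84 and 4. All 36 peaks lay in a stretch of 2392 nt near its start, which holds 17.6% of its exon bases. At the site chr17:16440190-16440256 the 3 lists were close, with 34, 31 and 27. At chr17:16441343-16441464 they were not, with 4 in FL, 30 in deltaNTR and 18 in deltaCTR. SNHG29 had 7194 to 8318 PE150 counts.

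In GAS5, another snoRNA host, nearly all peaks lay at the snoRNAs themselves, and in SNHG1 a part of them did. RefSeq places 8 snoRNA genes (SNORD29, SNORD31, SNORD44 and SNORD76 to SNORD80) under 22 lncRNA peaks, 17 of the 18 in GAS5 and 5 of the 9 in SNHG1. None of them is a gene of its own in the GENCODE table used here, and each is exonic in 1.10 to 35.0% of the annotated transcripts of its host. Such peaks were 3.61% of the lncRNA peaks (2.39 to 5.4) and 0.0724% of all peaks. They mostly crossed the first base of the snoRNA: 17 of 22 did, 5 lay inside, and none crossed the last base. SNORD44 scored 11 in FL, 12 in deltaNTR, 9 in deltaCTR, 0 in deltaLa-module and 4 in deltaNTD. SNORD31 scored 13, 5 and 6 in the first 3 lists. SNORD76 scored 0, 12 and 3. The deltaLa-module list had 0 of its 36 lncRNA peaks over a snoRNA gene, a count that allows up to 9.64% (Wilson interval).

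tRNA genes lay under another 31 lncRNA peaks. There were 12 such tRNA genes in 10 lncRNA genes, all on the strand of the lncRNA as read from the B box of the tRNA promoter (searched as GTTCNANNC on both strands and present in 381 of 429 tRNA genes of RefSeq). The strongest was TRR-TCG1-1 in POLG-DT, a transcript that starts beside the POLG gene. This 1 site scored 137 in FL, 48 in deltaNTR, 106 in deltaCTR, 23 in deltaLa-module and 8 in deltaNTD. The FL score was the highest of any lncRNA peak, and the 23 and 8 were the highest lncRNA peaks of the deltaLa-module and deltaNTD lists. TRQ-TTG2-1 in ZBED9-AS1 had summed scores of 34, 20, 29, 3 and 0. TRV-AAC2-1 in LINC01962 had 16, 8, 21, 0 and 0. In FL these peaks were 9 of 178 in number (5.06%, 2.68 to 9.33, against 0.3% of all FL peaks) but 18.8% of the summed lncRNA score. Of the 31 peaks, 19 crossed the first base of the tRNA, 12 lay inside and none crossed its last base.

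Together, tRNA and snoRNA genes lay under 53 of the 610 lncRNA peaks (8.69%, 6.70 to 11.2), compared with 0.373% of all peaks. Most of all peaks lay in protein-coding exons, where such genes were rare. Of the 145 peaks over tRNA genes in all lists, 111 lay in introns, 31 in lncRNA exons and 3 in protein-coding exons. Peaks over tRNA genes were thus not particular to lncRNA exons. Positions of peak centres were counted with the first base of the small RNA as 1. The centre lay between -5 and 5 on this scale in 31 of these 53 peaks (58.5%, 45.1 to 70.7). Of the 127 peaks over tRNA or snoRNA genes elsewhere in the lists, 37 had their centre there (29.1%). A site with peaks in several lists counts once for each list here, so these peaks, from 20 and 43 small RNA genes, are not independent and the interval is too narrow. By score, 211 of 703 lay in this window in lncRNA exons and 509 of 2607 elsewhere. The highest peak was an exception, since that of TRR-TCG1-1 covered bases 12 to 45 of the tRNA. Among lncRNA peaks of FL, deltaNTR and deltaCTR with a score of at least 10, 9 of 17 over small RNAs were at most 20 nt wide, compared with 10 of 56 elsewhere (17.9%) and 10.1% of all peaks of that score. The authors discarded reads that first mapped to tRNA, and a read on bases shared by a lncRNA and a small RNA cannot be told apart between them.

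The input libraries set these genes apart too. POLG-DT had 26 PE150 counts in FL and 3 to 26 over the 6 lines, but 501 SE50 counts in FL. LINC01962 had 0 PE150 and 507 SE50 counts in FL, and ZBED9-AS1 had 51 and 1931. GAS5 had 2707 and 43968, and SNHG1 1292 and 6705. Counts scaled to library size (CPM) over the 6 lines were higher in SE50 than in PE150 for 5 of the 7 genes with a tRNA site and at least 20 PE150 counts. The same held for 4 of the 139 other genes with a lncRNA peak (2.88%), GAS5 and SNHG1 among them, and for 1.83% of all genes. The score per 1000 PE150 counts in FL was 5269 for POLG-DT, 666.7 for ZBED9-AS1, 13.7 for GAS5 and 12.4 for SNHG1, where the median of the lncRNA genes was 8.72.

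**Figure D3:**
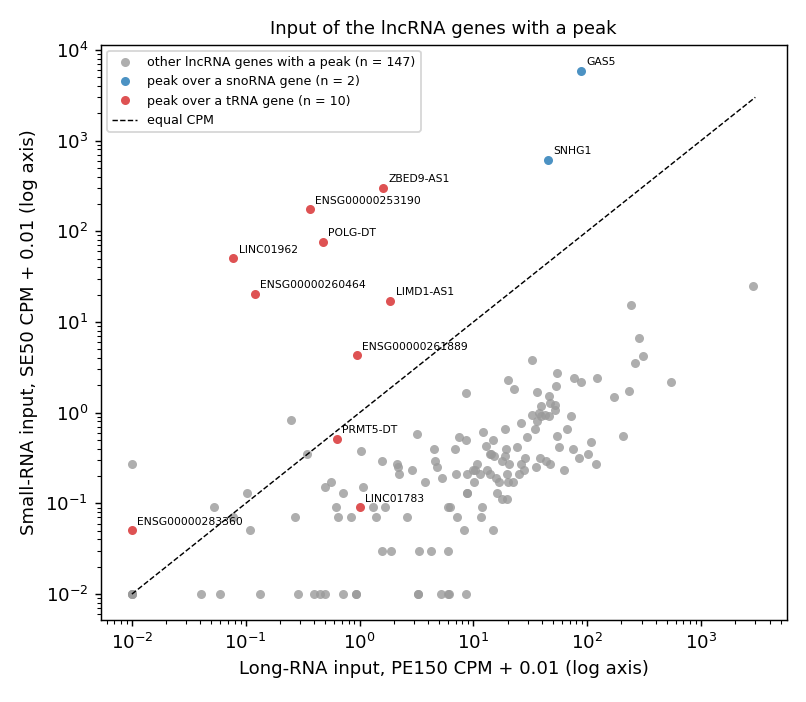
Small-RNA input (vertical, SE50 CPM + 0.01) against long-RNA input (horizontal, PE150 CPM + 0.01), both log axes and pooled over the 6 lines, for the 159 lncRNA genes with a peak. Red points are the 10 genes with a peak over a tRNA gene, blue points GAS5 and SNHG1, and the dashed line marks equal CPM; most of the coloured points lie above it and most grey points below.

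microRNA hosts had summed scores of 84 in FL, 105 in deltaNTR and 72 in deltaCTR, compared with 173, 202 and 133 for snoRNA hosts. In deltaLa-module the sums were 13 and 4. NEAT1 counts among the microRNA hosts, with 31 of the FL score and 72 of the deltaNTR score. MIR17HG, the host of the miR-17-92 cluster, had its 6 peaks in 78 nt at chr13:91354176-91354253, which is 2784 nt past the last of its 6 microRNA genes. The higher of both sites scored 22 in FL, 14 in deltaNTR and 19 in deltaCTR, on 457 to 610 PE150 counts. MIR100HG, with a mean of 307.6 CPM, had summed scores of 0, 7 and 6, and MIR22HG 3, 6 and 5. MIR99AHG scored 9 in FL and 3 in deltaLa-module. Of the 62 microRNA hosts with a mean of at least 1 CPM, 12 had a peak (19.4%, 11.4 to 30.9). The group of snoRNA hosts had 14 of 37 (37.8%, 24.1 to 53.9), and lncRNA genes at that level as a whole had 124 of 1855 (6.68%, 5.63 to 7.91). The intervals of both host groups overlap, and the groups were not matched for abundance.

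LINC00632 gives rise to CDR1-AS, known as a circular RNA with many binding sites for miR-7. It had 1 peak in FL, 4 in deltaNTR, 4 in deltaCTR and 1 in deltaLa-module, with summed scores of 3, 12, 13 and 3. All 10 peaks lay in 1367 nt, 4.73% of its exon bases, and inside a single exon at chrX:140783175-140784965 on the plus strand that 2 of its 29 annotated transcripts use in this form. This exon holds 67 copies of GTCTTCC, the match to the 7-nt seed of miR-7, a motif searched on the strand of the RNA after the place of the peaks was known. All 10 windows of 31 nt held it, as did 73.9% of all windows of that length in the exon and 0.286% of all peak windows. The seed and its matches are in capitals here, to show how the peaks fall on the repeat.
hsa-miR-7-5p (RefSeq): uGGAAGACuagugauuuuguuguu
LINC00632 in FL, chrX:140783802-140783832, plus strand, score 3: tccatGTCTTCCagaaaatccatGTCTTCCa
LINC00632 in deltaCTR, chrX:140783193-140783223, plus strand, score 4: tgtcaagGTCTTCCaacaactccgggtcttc
No peak of LINC00632 scored above 4, on 4797 to 6156 PE150 counts per line, and the counts do not separate circular from linear RNA.

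Antisense and divergent transcripts made up many of the other genes, with 29 genes named as antisense and 23 as divergent. SVIL-AS1 had its 10 peaks in 646 nt, 4.84% of its exon bases, and its main site at chr10:29421731-29421779 scored 27 in FL, 11 in deltaNTR and 14 in deltaCTR. Its PE150 reads lay mostly on the opposite strand, 14835 against 5809, so reads from the other strand outnumber its own. LOXL1-AS1 had its main site at chr15:73927663-73927679, with 23, 12 and 23, and only peaks of the lowest score elsewhere. FGD5-AS1 had summed scores of 20, 7 and 33, and its main site, at chr3:14945107-14945144, scored 10 in FL, 0 in deltaNTR and 9 in deltaCTR. CRNDE, a transcript known for its high level in tumours, had 12, 10 and 16 over 3 sites, each with a peak in all 3 lists. ENSG00000268205 had 19, 17 and 54, with 20 of the deltaCTR score at 1 site. ENSG00000263731 had 12, 0 and 18 on 1364 to 1746 PE150 counts, so the deltaNTR list alone of these 3 lacked it.

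A few genes had peaks with almost no long RNA. ENSG00000274215 scored 15 in deltaNTR and 22 in deltaCTR, with 0 in FL, on 7 PE150 counts over the 6 lines against 67 on the opposite strand. R3HDM2-DT scored 5, 13 and 17 at chr12:57431169-57431190 on 15 counts. Of the 159 genes with a peak, 35 had a mean below 1 CPM and 13 had fewer than 20 counts in all 6 libraries together.

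Sharing of lncRNA sites between lists followed the score. Of the 178 FL peaks, 37.6% were overlapped by a deltaNTR peak (30.8 to 44.9) and 45.5% by a deltaCTR peak (38.4 to 52.8). In protein-coding exons the shares were 37.3% and 39.7%. Among FL peaks with the lowest score the shares were 17.4% and 22.8%, and among those of at least 10 they were 80.8% and 96.2%. Protein-coding peaks of at least 10 had 88.5% and 93.4%, inside the intervals of the lncRNA peaks. Only 25 of the 159 genes had a peak in all of FL, deltaNTR and deltaCTR. In exactly 1 of these lists were 107 genes, whose summed score was at most 12 with a median of 3, so many of them rested on a single peak of the lowest score. Sharing by gene was not computed for protein-coding genes, so these gene numbers have no background.

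At the 36 lncRNA sites with 1 peak in each of FL, deltaNTR and deltaCTR, the summed scores were 499, 345 and 507. The deltaNTR to FL ratio was 0.691 (0.601 to 0.795) and the deltaCTR to FL ratio 1.02 (0.896 to 1.15). Over all 2238 such sites the ratios were 0.633 and 1.12. In deltaNTR the 6 sites in tRNA genes had a ratio of 0.458, with 4 sites lower, 1 equal and 1 higher, and POLG-DT made up 137 of their summed FL score of 212. The 7 sites of MALAT1 had a ratio of 1.42, with 3 lower and 4 higher and single-site ratios from 0.375 to 5.67. Without the POLG-DT site the deltaNTR ratio was 0.8204, and without all tRNA and snoRNA sites it was 0.904. Scores were not scaled to the depth of the iCLIP libraries, so a ratio over 1 list says no more than how the lncRNA sites stand to the other sites of that list.

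The share of lncRNA genes with an FL peak was below that of protein-coding genes in each bin of CPM. Among genes at 10 to 30 CPM in the FL line, 17 of 168 lncRNA genes (10.1%, 6.41 to 15.6) and 16.2% of protein-coding genes (14.9 to 17.6) had an exon peak. At 30 to 100 CPM the shares were 27.4% (17.9 to 39.6) and 42.6% (41.1 to 44.2). At 100 CPM or more they were 9 of 14, or 64.3% (38.8 to 83.7), and 80.9% (79.2 to 82.4). The intervals overlap in the first and last of these bins and not in the middle one. With lncRNA genes that overlap a protein-coding gene on their strand left out, the lncRNA shares were 11.8%, 30.4% and 75%. Their intervals (7.50 to 18.1, 19.9 to 43.3 and 46.8 to 91.1) all overlap those of the protein-coding genes. On a per-length scale the gap was wider: at 10 to 30 CPM per kb of exon the shares were 23.6% and 58.8%. The lncRNA genes of that bin had a median of 0.881 kb of exon and the protein-coding genes 5.24 kb.

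**Figure D4:**
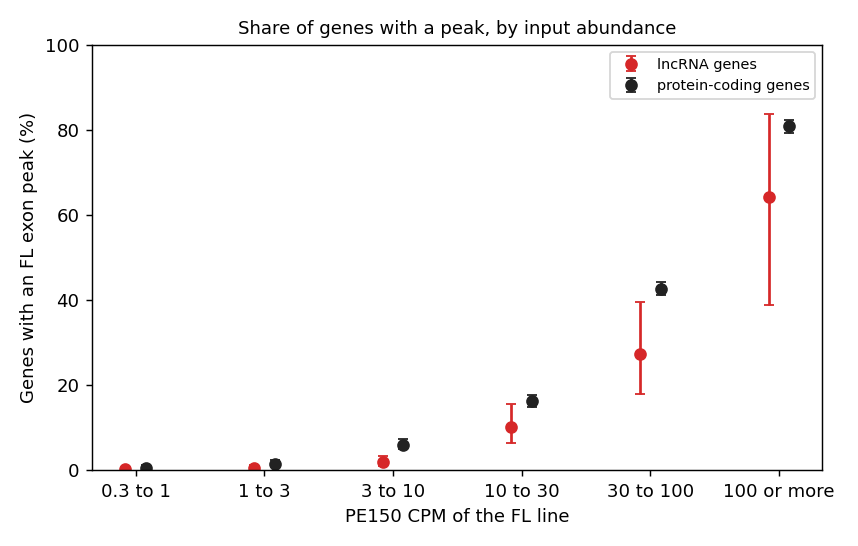
Share of lncRNA genes (red) and protein-coding genes (black) with at least 1 FL exon peak (vertical, %) by PE150 CPM of the FL line (horizontal). Points are shares and bars 95% Wilson intervals. The lncRNA point is the lower in every bin. With all lncRNA genes kept, as drawn here, the intervals are apart at 3 to 10 and at 30 to 100 CPM. Without those overlapping a protein-coding gene on their strand, the intervals are apart only at 3 to 10 CPM.

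Where a gene did have FL peaks, the score per 1000 PE150 counts had a median of 8.72 over 62 lncRNA genes (quartiles 4.21 and 23.1) and of 3.38 over 4151 protein-coding genes (1.80 and 6.84). The lncRNA genes had fewer counts, with a median of 637 against 2562. In genes of 20 to 100 counts the medians were 144.1 over 10 lncRNA genes and 43.5 over 25 protein-coding genes. They were 16.5 and 16.8 at 100 to 300 counts, 6.32 and 6.29 at 300 to 1000, 3.61 and 2.91 at 1000 to 3000, and 3.65 and 2.51 from 3000 up. The classes were thus close between 100 and 1000 counts, and the lncRNA median was the higher in the other bins. Only genes with a peak enter and the lowest score is 3, so the lowest possible value rises as counts fall. At 20 to 100 counts the median counts were 38 and 74, so that bin cannot compare the classes. From 3000 up there were 8 lncRNA genes, and summed score per 1000 summed counts was 3.648 against 4.265. At 1000 to 3000 counts it was 6.166 against 5.668. Several abundant lncRNAs had no peak in any list. OIP5-AS1 had a mean of 97.7 CPM, SNHG3 72.3, CYTOR 62.6, KCNQ1OT1 55.9, PVT1 53.4 and DANCR 49.8. OIP5-AS1 and SNHG3 overlap a protein-coding gene on their own strand. Of the 11 other well-known lncRNAs at 1 CPM or more, NORAD, CRNDE and LINC-PINT had a peak, and LINC-PINT scored 4 in FL and 4 in deltaCTR. The 11 include TUG1, which the annotation classes as protein-coding and whose exons could therefore hold no lncRNA peak.

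Few bound lncRNAs differed in level between lines, with 1 library per line and no test. Fold changes are on the scale of log2(CPM + 1) against the parental line. Of the 124 bound genes with a mean of at least 1 CPM, 0 differed by at least 2-fold in FL and 0 in deltaCTR, where 0.0569% and 0.0783% of all 14057 genes did. The number was 1 in deltaNTR, 1 in deltaLa-module and 1 in deltaNTD, where the shares of all genes were 0.754%, 0.413% and 0.334%. It was the same gene, ENSG00000290032, with counts of 336 in parental, 163 in FL, 95 in deltaNTR, 167 in deltaCTR, 107 in deltaLa-module and 115 in deltaNTD. All 5 inducible lines were below the parental line, with log2 differences of -0.99, -1.49, -0.92, -1.51 and -1.39. Its 1 peak, in deltaNTR, had a score of 3.

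lncRNA peaks were poorer in pyrimidines than other peaks. The mean C and T share of the 31 nt windows was 47.8% ± 12.4 (SD over 178 peaks) in FL, 50.5% ± 12.1 in deltaNTR and 48.3% ± 12.7 in deltaCTR, compared with 52.5%, 52.8% and 51.9% over all peaks. The exons of the same genes had 49.2% to 49.4%, so the lncRNA windows were close to their own exons. A run of at least 6 pyrimidines was in 28.1% of the FL lncRNA windows (22.0 to 35.1) and in 36.0% of all FL windows. The spread over peaks was several times these differences.

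Along the transcript the FL peaks were spread evenly, with 65 in the first part, 58 in the middle and 55 in the last when the longest transcript was cut into 3 equal parts. Where the longest transcript holding the centre had several exons, 62 of 87 FL peaks (71.3%) lay in its last exon. With the shortest such transcript it was 81 of 138 (58.7%). The share of exon bases in last exons was not computed, so neither value has a background. Peaks in sequence with copies elsewhere were few: the central 31 nt occurred more than once in the genome in 14 of 178 FL lncRNA peaks (7.87%) and in 4.33% of all FL peaks. Nearly all peaks were free of a second gene. The centre lay in exactly 1 gene on its strand for 48204 of the 48311 peaks, and 1 of the 610 lncRNA peaks lay in the body of a protein-coding gene. Of the 18866 annotated lncRNA genes 2037 (10.8%) overlap one, and among lncRNA genes with a mean of at least 1 CPM a peak was seen in 5 of 322 that overlap one (1.55%, 0.665 to 3.58) and 119 of 1533 that do not (7.76%, 6.53 to 9.21). Whether the peak calling left out such places was not tested.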

How the data were processed

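Peaks came from 5 deposited lists whose score column is, per the authors, the sum over 3 replicates. Per the study's methods, reads were demultiplexed, trimmed with Trim Galore, cleared of rRNA and tRNA reads with Bowtie 2, mapped with STAR to GRCh38.p13, deduplicated with UMI-tools, called as peaks with Clippy, and cleared of parental peaks with bedtools 2.30.0. The deposited gene counts of the 12 input libraries were made by the authors with STAR 2.7.10b after Trim Galore 0.6.10; the reverse-strand column served for PE150 and the forward-strand column for SE50. In this work peaks were assigned by their centre with GENCODE version 44, a later release than that of the authors. To it 62625 of 62750 gene identifiers matched. The tRNA and snoRNA genes under peaks came from RefSeq (GRCh38.p14), as did the miR-7 sequence. The snoRNA and microRNA host groups were formed from gene symbols and from GENCODE snoRNA and microRNA genes inside them. The microRNA genes of MIR17HG were also those of GENCODE.

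Counts were scaled with the TMM factors of edgeR 4.0.16, with DESeq2 1.42.0 size factors as an alternative, with a pseudocount of 1 CPM and a minimum mean of 1 CPM. No test was run, since the lists are pooled and each line had 1 library of each kind. The fold-change formula, with library totals in place of TMM factors, was tried on simulated counts with counting error only and changes well above 2-fold. The fold-change script itself was not run on simulated data. Intervals are Wilson intervals for shares and exact binomial intervals for ratios of numbers and scores. Python 3.11.15, pandas 2.3.3, scipy 1.17.1 and pysam 0.24.0 were used. Genes named in the text were the 20 highest by summed score, members of lists of nuclear body RNAs, snoRNA hosts, microRNA hosts and other well-known lncRNAs with a peak or at least 1 CPM, the genes of the 5 highest deltaLa-module and deltaNTD peaks, and bound genes that differed at least 2-fold; genes of X inactivation were left out. The protein-coding genes VIM, ACTB and MT-CO1 were named for comparison after their values were seen. The members and the lists were chosen with earlier results of these data known. For PE150 the forward strand held 316378 counts of the bound genes against 1317359 on the reverse strand, and in 19 of 151 genes with at least 20 counts the forward strand was higher.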

Additional observations from a re-analysis of the deposited data

How the results depend on the processing

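Over 43 values and 180 alternatives, 131 stayed within the interval or within 1.5 times of the value reported and 49 did not. Keeping only scores above 3 lowered the lncRNA peaks to 86 in FL, 92 in deltaNTR, 92 in deltaCTR, 19 in deltaLa-module and 2 in deltaNTD, and raised the deltaLa-module share to 12.8%. It gave overlaps with FL of 47.7% by deltaNTR and 57.0% by deltaCTR. Asking for 50% of both peaks gave 29.2% and 29.8%. Without MALAT1, an alternative chosen after seeing the data, the share of the list was 0.910% in FL, 0.904% in deltaNTR, 0.929% in deltaCTR and 1.48% in deltaLa-module, with 9 deltaLa-module peaks and a pyrimidine share of 46.2% there. The deltaNTR to FL ratio was 0.859 as a median per site, 0.8204 without the highest site and 0.904 without peaks over tRNA or snoRNA genes, also chosen after seeing the data; the deltaCTR ratio was then 1.19.

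With a score above 3, the share of lncRNA genes with an FL peak from 1 CPM up to 100 CPM was 0.184%, 0.750%, 2.38% and 14.5%, and of protein-coding genes from 0.3 CPM up 0.212%, 0.215%, 1.40%, 5.87%, 20.97% and 59.3%. Per kb of exon, lncRNA genes at 1 to 3, 3 to 10 and 10 to 30 CPM had 1.66%, 5.49% and 23.6%, and protein-coding genes from 0.3 CPM up 4.02%, 10.5%, 31.4%, 58.8%, 77.7% and 82.7%. The lncRNA share stayed the lower in each bin. The protein-coding score per 1000 parental counts was 3.56. The cause of these shifts was not tested. A pseudocount of 0.1 CPM gave 3, 3, 2, 4 and 2 genes with a 2-fold difference in FL, deltaNTR, deltaCTR, deltaLa-module and deltaNTD. These were 2.42%, 2.42%, 1.61%, 3.23% and 1.61% of the 124 bound genes. Of all 14057 genes, 0.391%, 1.76%, 0.676%, 1.25% and 1.16% differed at this setting. The pyrimidine share was 49.4% in FL and 52.2% in deltaNTR over the peak itself, and 49.1% in deltaNTR and 49.9% in deltaCTR for scores above 3. No paired analysis was possible because replicates were merged in the peak lists and each line had 1 input library of each kind.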
